A study of Drosophila melanogaster with 2 samples.

Results

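Weak coding peaks are places in protein-coding sequence that were listed with low signal when GFP-tagged Repo was recovered from fly embryos. They are the peaks of the authors' pooled list whose summit lay in no peak of the authors' optimal list, more than 500 bp from the start (TSS) of every protein-coding transcript, and inside an annotated coding sequence. The rule gave 7030 such peaks among the 30000 of the pooled list, which is 25.7% of the 27302 pooled-list peaks outside the optimal list, called weak peaks below. The members were thus chosen by measured values: the optimal list holds the pooled-list peaks of highest signal, so the low signal of the members follows from the rule. The chromatin came from Drosophila melanogaster of the strain repo-GFP, a transgenic line with GFP at the C-terminus of Repo, collected as whole embryos of mixed sex at 0 to 24 hours. Chromatin fragments of 200 to 800 bp were made by sonication and recovered with an antibody to GFP, in 1 group of 2 biological replicates that the labels number 1 and 3. All samples carry the tagged protein, and no untagged line, other genotype or other stage was analysed here. Each replicate has a list of 30000 peaks of its own, and the pooled list was made from both.

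Repo is a homeodomain transcription factor that is needed for the differentiation of glia, the support cells of the nervous system, and it is made in nearly all lateral glia of the fly embryo. Homeodomain proteins bind short DNA sites rich in A and T. In whole embryos, glia are a minority among muscle, epidermis, neurons, fat body and other cells, so most of the starting chromatin comes from cells that do not make Repo. Coding exons of the fly are richer in G and C than introns and intergenic DNA. A list of peaks and background made for an irreproducible discovery rate (IDR) analysis is meant to reach far down into weak signal, so that the replicates can be compared.

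The sequence at some of these summits is shown first, because the results below turn on their base composition. Each run is the 101 bp around a summit, read 5′ to 3′ on the coding strand of the host gene, from the dm6 assembly. The capitals mark the 4 six-base words that had the lowest p at member summits, on either strand. These words are GCCGCC and its shifted form CCGCCG, then CCGCCC, and last the word CGCCGC. The first 10 runs belong to the members of highest signal and to those ranked highest in both replicates; some of these members are named without a sequence.
CenG1A, chr2L:13836164-13836264, plus strand: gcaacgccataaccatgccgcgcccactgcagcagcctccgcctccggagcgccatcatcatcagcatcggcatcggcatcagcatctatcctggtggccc
Helz, chr3L:14792177-14792277, plus strand: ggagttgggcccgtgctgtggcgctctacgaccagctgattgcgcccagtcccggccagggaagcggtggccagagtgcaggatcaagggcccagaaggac
Abl, chr3L:16646956-16647056, minus strand: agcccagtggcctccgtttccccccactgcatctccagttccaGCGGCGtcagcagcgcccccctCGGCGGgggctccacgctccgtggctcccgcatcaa
mthl15, chr2L:10237664-10237764, minus strand: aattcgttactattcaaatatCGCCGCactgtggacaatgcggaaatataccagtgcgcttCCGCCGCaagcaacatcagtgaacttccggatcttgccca
epsilonCOP, chr2L:6489684-6489784, plus strand: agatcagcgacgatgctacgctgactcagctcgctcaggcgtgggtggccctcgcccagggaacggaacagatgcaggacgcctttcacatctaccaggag
CG6356, chr3R:24286509-24286609, plus strand: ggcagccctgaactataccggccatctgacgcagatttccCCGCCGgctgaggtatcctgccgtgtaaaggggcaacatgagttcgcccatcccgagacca
LanB2, chr3L:9617323-9617423, plus strand: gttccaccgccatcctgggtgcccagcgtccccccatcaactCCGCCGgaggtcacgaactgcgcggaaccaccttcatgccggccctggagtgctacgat
Glut4EF, chr3R:9875912-9876012, plus strand: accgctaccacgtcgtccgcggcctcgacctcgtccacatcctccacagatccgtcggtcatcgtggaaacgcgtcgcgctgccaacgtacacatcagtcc
cyst, chr2L:19507664-19507764, minus strand: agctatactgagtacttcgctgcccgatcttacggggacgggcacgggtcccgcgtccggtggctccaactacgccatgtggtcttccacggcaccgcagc
mus302, chr3L:16779126-16779226, minus strand: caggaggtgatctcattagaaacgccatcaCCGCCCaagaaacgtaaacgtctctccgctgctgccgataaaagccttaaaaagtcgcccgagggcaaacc
Of these 10 windows, 5 hold at least 1 of the 4 words. GC content (the share of G and C) ran from 48.5% in the mthl15 window to 71.3% in the Abl window.

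Members just below the optimal list reached a signal of 83.93, and the median over all members was 32.84. Signal is the authors' value per peak and its scale is not stated. The 5 members of highest signal lay in CG18659 (83.93), in Rac2 (83.86), in CenG1A, a GTPase-activating protein for Arf proteins (83.19), in RpL19, a ribosomal protein (82.11), and in Naus (81.06). On the other side of the threshold, the optimal peaks of lowest signal that met the same coding and distance rule lay in Hakai (84.79), CG31211 (86.13), bif (87.31), InR, the insulin receptor (87.95), and cact, the inhibitor of Dorsal (90.33). Such peaks were few in the optimal list, 15 of 2697 (0.556%). The member in Rac2 had a signal of 38.96 (rank 3534) in replicate 1 and 43.97 (rank 2746) in replicate 3. The member in Abl, a non-receptor tyrosine kinase, had 37.72 (rank 3795) in replicate 1 and 42.61 (rank 2893) in replicate 3. Both are among the members ranked best by their lower replicate rank, so that high ranks in both replicates follow from how they were chosen. The member in epsilonCOP, a subunit of the COPI vesicle coat, chosen by pooled signal alone, had a signal of 49.89 (rank 2066) in replicate 1 and 27.5 (rank 7241) in replicate 3. That in Ehbp1 was at 53.45 (rank 1801) and 27.26 (rank 7388).

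Weak coding peaks became more frequent further down the pooled list. They made up 6.60% of the weak peaks at ranks 1 to 5000, 20.2% at ranks 5001 to 10000, 27.1% at ranks 10001 to 15000 and between 29.8% and 30.4% at ranks 15001 to 30000. The median signal of members was lower than that of weak promoter peaks (39.24), weak intron peaks (34.17) and weak intergenic peaks (33.38). All members were 396 bp wide, and 843 of them overlapped another member by at least 1 bp.

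Most members were listed by at least 1 replicate, and about 1 in 3 by both. The summit of 4375 members (62.2%, Wilson 95% interval 61.1 to 63.4%) lay inside a peak of replicate 1's own list, against 67.7% of all weak peaks. For replicate 3 the count was 4585 (65.2%, 64.1 to 66.3%), against 67.1% of all weak peaks. Both replicates held 2452 members (34.9%, 33.8 to 36.0%), against 41.3% of all weak peaks, and 522 (7.43%) were held by neither. The pooled list was made from the same chromatin as the replicates, so a share held by a single replicate has no independent baseline here, and the comparison is between classes of weak peaks. Over the members that each replicate held, its summit lay at a median of 15 bp from the pooled summit in replicate 1 and 20 bp in replicate 3.

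Members were held by both replicates less often than the other classes over all ranks. The share was 34.9% of coding against 39.7% of intron peaks (odds ratio 0.813, two-sided Fisher's exact test, adjusted p = 1.68e-09 after Benjamini-Hochberg over 9 comparisons). It was 50.9% for weak promoter peaks (odds ratio 0.517, adjusted p = 3.37e-82, same exact test) and 38.7% for weak intergenic peaks (odds ratio 0.85, adjusted p = 0.00018, same exact test). These differences did not hold when peaks were compared within bands of rank and the bands were combined. Combined over 6 bands of 5000 ranks, with p from the Cochran-Mantel-Haenszel chi-square test, the odds ratio for both replicates was 1.1 against intron peaks (95% interval 1.01 to 1.2, adjusted p = 0.0399), 1.05 against promoter peaks (0.967 to 1.15, adjusted p = 0.278) and 1.02 against intergenic peaks (0.911 to 1.13, adjusted p = 0.779). At ranks 5001 to 10000, for example, both replicates held 82.8% of coding, 80.3% of intron, 78.0% of promoter and 82.2% of intergenic peaks. At ranks 25001 to 30000 the shares were 5.73%, 5.30%, 7.21% and 3.85%. Against promoter peaks the direction changed with rank. The odds ratio was 1.35 at ranks 5001 to 10000 (adjusted p = 0.014, Fisher's exact test) and 0.754 at ranks 20001 to 25000 (adjusted p = 0.0868, same test). Peaks are not replicates and share 2 libraries, so these p-values cover counting error alone.

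**Figure D1:**
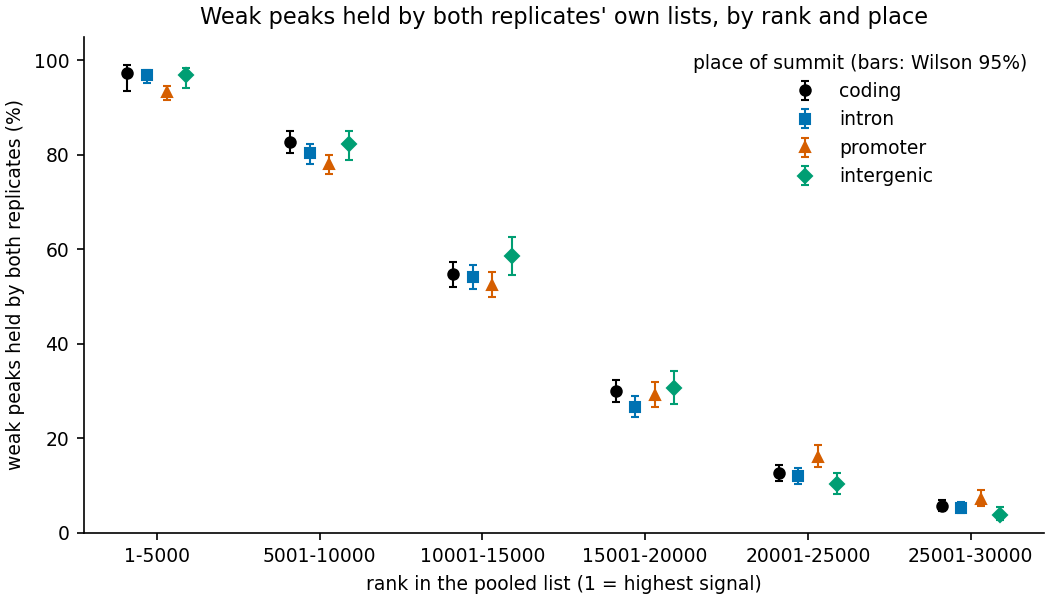
Share of weak peaks whose summit lay in a peak of both replicates' own lists (y axis, %), by rank in the pooled list (x axis, bands of 5000) and by place of the summit; bars are Wilson 95% intervals. The coding share falls from 97.4% at ranks 1 to 5000 to 5.73% at ranks 25001 to 30000. The 4 classes differ less within a band than each does across bands. At ranks 20001 to 25000 they run from 10.2% (intergenic) to 16.1% (promoter).

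The replicates differed in which class they held. At equal rank, by the same chi-square test, replicate 1 held coding peaks less often than promoter peaks (Mantel-Haenszel odds ratio 0.765, 95% interval 0.706 to 0.828, adjusted p = 2.18e-10), whereas replicate 3 held them more often (1.31, 1.21 to 1.42, adjusted p = 1.56e-10). Against intron peaks the value was 0.931 in replicate 1 (adjusted p = 0.0798) and 1.17 in replicate 3 (adjusted p = 5.74e-05, chi-square test). Against intergenic peaks it was 1.12 in replicate 1 (adjusted p = 0.0322) and 0.947 in replicate 3 (adjusted p = 0.278, chi-square test). The difference from promoter peaks in replicate 1 lay in the lower bands and was not seen in the upper ones. At ranks 5001 to 10000, replicate 1 held 91.4% of coding and 91.4% of promoter peaks, and replicate 3 held 91.4% and 86.5%. In the lowest band, ranks 25001 to 30000, replicate 1 held 40.7% of coding and 51.1% of promoter peaks, and replicate 3 held 44.1% and 39.2%. The pooled list was made from both replicates, so their shares at equal rank are tied to each other. At ranks 5001 to 10000, neither replicate held 0% of coding and 0.115% of promoter peaks, so a peak missed by replicate 1 was nearly always held by replicate 3. At ranks 25001 to 30000 these values were 20.9% and 16.8%. The opposite directions against promoter peaks are therefore not independent findings.

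The replicates' own lists, taken without the pooled list, gave coding peaks that met in part. The same rule gave 6584 coding peaks in replicate 1 and 7094 in replicate 3. Of replicate 1's, 2404 (36.5%, Wilson 95% interval 35.4 to 37.7%) had their summit in a peak of replicate 3, whose peaks covered 13.2% of the distal coding bases. The term distal coding bases is used for coding sequence more than 500 bp from every TSS and outside optimal peaks, 18865583 bp or 14.1% of the assembled arms. Of replicate 3's coding peaks, 2439 (34.4%, 33.3 to 35.5%) lay in a peak of replicate 1, which covered 12.6%. The shared fraction was thus 2.77 and 2.72 times the coverage, which was not matched for the GC content of the peaks. Among coding peaks at ranks 1 to 5000 of the replicate's own list it was 67.9% for replicate 1 (131 of 193) and 67.8% for replicate 3 (164 of 242), and it fell to 27.5% and 25.5% at ranks 25001 to 30000.

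Weak coding peaks sat on coding sequence that was rich in G and C. The GC content of the 101 bp at member summits had a median of 57.4% and ran from 48.5% at the 10th to 65.3% at the 90th percentile. Over all distal coding bases the median was 53.5%, and in 6443 windows shifted by 500 bp from the members, centred on distal coding sequence outside every pooled-list peak, it was 54.5%. The summits of the replicates' own coding peaks had medians of 56.4% in replicate 1 and 57.4% in replicate 3. Weak peaks elsewhere were poorer in G and C, with medians of 43.6% in introns, 45.5% between genes and 47.5% at promoters, and optimal peaks had a median of 37.6%. Coding exons are richer in G and C than introns and intergenic DNA, so a difference from those classes in this direction follows from the rule. No shifted windows were taken for the other classes. Members held by both replicates had a mean of 58.3% ± 6.46 (SD, n = 2452 peaks) and those held by neither 56.6% ± 6.80 (SD, n = 522 peaks).

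The density of members rose with GC content over its whole range. Distal coding bases whose surrounding 101 bp were under 40% GC held 4.96 members per 100 kb, those at 50 to 55% held 29.9, those at 60 to 65% held 71.6, and those at 70% or more held 134. Replicate 1's own list gave 7.93 per 100 kb in the lowest class and 102 in the highest, and replicate 3's own list gave 5.04 and 126. The whole territory held 37.3 members per 100 kb in the pooled list. The share of members held by both replicates rose alongside, from 25.0% (15 of 60) under 40% GC to 48.5% (81 of 167) at 70% or more. The median signal rose from 30.7 to 36.8. These shares were not compared at equal rank. Mean GC content of members fell from 59.6% at ranks 1 to 5000 to 56.6% at ranks 25001 to 30000.

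**Figure D2:**
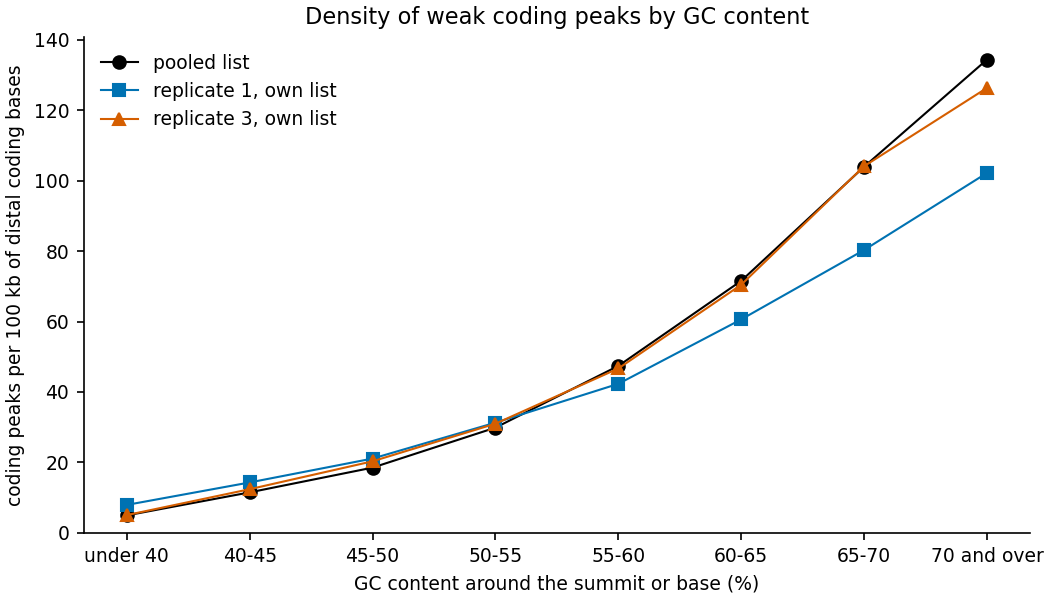
Weak coding peaks per 100 kb of distal coding bases (y axis) by the GC content of the surrounding 101 bp (x axis, %), for the pooled list and each replicate's own list. All 3 lines rise through each class, the pooled list from 4.96 to 134, and replicate 1 ends lowest at 102.

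All codon positions carried the excess of G and C. In the 225385 codons read from member windows, G or C stood at 59.5% of the first, 44.9% of the second and 69.0% of the third positions. In shifted coding windows these shares were 56.6%, 41.7% and 65.1%, and over all distal coding sequence they were 55.7%, 41.6% and 63.1%. Replicate 1's own coding peaks gave 68.0% and replicate 3's 68.4% at the third position. The third position of valine codons, which can change without changing the protein, was G or C in 76.4% of valine codons in member windows and 71.2% in shifted windows. Valine had the largest difference of the residues read in this way. The shares were 66.9% against 62.4% for proline, 69.1% against 65.4% for threonine, 66.4% against 63.2% for alanine and 52.9% against 50.6% for glycine. The encoded protein differed as well: alanine made up 8.86% of residues against 7.50% in shifted windows, and glycine 7.17% against 6.13%. These are residues with codons that start with 2 letters from G and C. Proline stood at 6.22% against 5.80%. The residues encoded by A- and T-rich codons were scarcer, with phenylalanine at 2.89% against 3.32%, isoleucine at 4.12% against 4.61%, asparagine at 4.15% against 4.69% and lysine at 5.03% against 5.70%. Both replicates' own lists gave shares on the same side of the shifted windows for each of these 7 residues.

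Six-base words followed the same order. Of 2080 words (each counted with its reverse complement), 296 (14.2%) were found in a higher share of member windows than of shifted windows and 495 (23.8%) in a lower share, at an adjusted p under 0.05 in a two-sided Fisher's exact test. The word GCCGCC stood in 19.3% of member windows and 12.6% of shifted windows (odds ratio 1.67, adjusted p = 1.45e-23, exact test). CCGCCG stood in 16.2% against 10.6%, CCGCCC in 10.6% against 6.38% and CGCCGC in 15.0% against 10.3%. AAATAA stood in 1.45% of member windows and 3.66% of shifted windows (odds ratio 0.387, adjusted p = 9.13e-14, exact test). TAAAAA (1.29% against 3.18%) and AAATAT (1.79% against 3.82%) were lower too. Of the 36 words made of G and C alone, 30 were higher and 0 lower, and of the 192 with 5 such letters 149 were higher and 0 lower. Of the 36 words with no G or C, all 36 were lower, and of the 192 with 1 such letter 167 were lower and 0 higher. In both replicates' own lists, 290 of the 296 higher words and 491 of the 495 lower words lay on the same side. Overlapping members share bases, and so do their windows, and the p-values do not allow for this. Coding sequence made up 97.1% of the bases of member windows and 95.2% of those of shifted windows. The tests of words, and of motifs below, did not allow for this difference either.

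**Figure D3:**
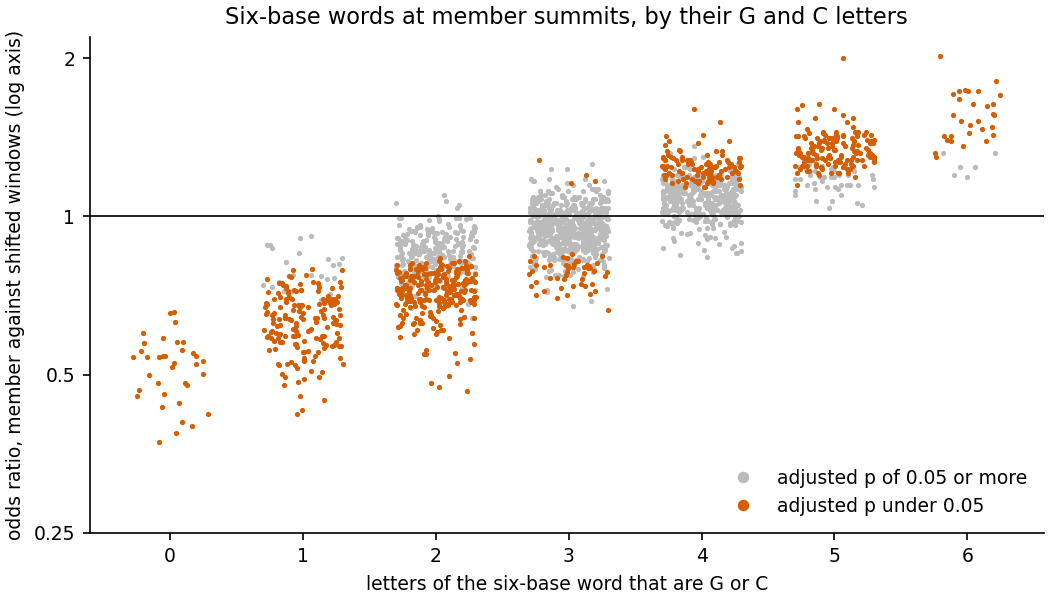
Odds ratio of each six-base word in member windows against shifted coding windows (y axis, log scale) by how many of its letters are G or C (x axis, points spread sideways); coloured points have an adjusted p under 0.05. The median odds ratio rises from 0.529 for words with no G or C to 1.49 for words made of G and C alone.

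No word passed the test between windows of like base composition. Among windows of 55 to 60% GC, 2141 at members and 1747 shifted, 0 of the 2080 words had an adjusted p under 0.05 by Fisher's exact test, and 122 had an unadjusted p under 0.05. There GCCGCC stood in 15.1% of member and 13.7% of shifted windows (odds ratio 1.12), and AAATAA in 0.654% and 0.687% (odds ratio 0.952). Other named words kept more of their odds ratio: CGCCGA was at 1.4 (1.6 in all windows), CGGTGC at 1.39 (1.56), CCGCCC at 1.28 (1.73) and TATCAA at 0.596 (0.485). These windows are fewer than in the full comparison, so the missed threshold does not show that the shares were equal. This setting was added after the full comparison had been seen.

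Sites of homeodomain proteins were not more frequent at member summits. Of 11 fixed motifs, searched by their letters on both strands, 5 (45.5%) passed an adjusted p of 0.05. CAATTA, a reported site of Repo, stood in 114 of 7030 member windows (1.62%, Wilson 95% interval 1.35 to 1.94%) and in 2.10% of shifted windows (odds ratio 0.77, adjusted p = 0.0861 by Fisher's exact test). Its share passed the test as lower under 4 alternatives: replicate 3's own list (odds ratio 0.607), members over 1000 bp from a TSS (0.701), windows reaching 100 bp either side (0.693) and a shift of 1000 bp (0.614). The homeodomain sites TAATTA (0.398% against 0.823%, odds ratio 0.482, adjusted p = 0.00364, exact test) and TAATGA (1.65% against 2.93%, odds ratio 0.555, adjusted p = 7.81e-06, exact test) were in a lower share of member windows. The E-box CAGCTG, a site of basic helix-loop-helix proteins, was in a higher share (9.87% against 7.90%, odds ratio 1.28, adjusted p = 0.000356, exact test). So were CACCTG, the E-box bound by Snail (9.70% against 8.12%, odds ratio 1.22, adjusted p = 0.00364, exact test), and CAGCAGCAG (4.74% against 3.49%, odds ratio 1.37, adjusted p = 0.00118, exact test). The sites of Dref (TATCGATA), M1BP (GGTCACAC), GAGA factor (GAGAGAG) and Zelda (CAGGTA) and the E-box CACGTG did not pass the test. Within windows of 55 to 60% GC, 0 of the 11 motifs had an adjusted p under 0.05 by Fisher's exact test, and 0 had an unadjusted p under 0.05. Several odds ratios were nonetheless of like size in these fewer windows, at 0.587 for TAATGA (unadjusted p = 0.0642, exact test), 1.3 for CAGCAGCAG and 0.739 for CAATTA, while that of CAGCTG was 0.981.

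The 3 members of highest signal that hold CAATTA and whose window is printed here are shown with the site in capitals. They were chosen after their values were seen.
Sry-alpha, chr3R:30042402-30042502, plus strand: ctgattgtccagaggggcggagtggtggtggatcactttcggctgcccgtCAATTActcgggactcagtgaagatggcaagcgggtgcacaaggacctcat
CG32687, chrX:10485733-10485833, minus strand: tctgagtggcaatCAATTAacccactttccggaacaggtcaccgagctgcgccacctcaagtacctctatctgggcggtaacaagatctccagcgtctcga
asun, chr3R:16265534-16265634, plus strand: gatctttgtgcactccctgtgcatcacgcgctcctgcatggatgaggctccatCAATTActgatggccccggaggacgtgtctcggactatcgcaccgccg
The member in Sry-alpha, a gene of the blastoderm's cell formation, had a pooled signal of 55.25, with 29.47 (rank 6530) in replicate 1 and 29.64 (rank 6079) in replicate 3. The member in CG32687 had 54.53, with 32.56 in replicate 1 and 20.92 in replicate 3, and that in asun had 43.79, with 20.34 and 23.56. Of the 114 members with the site, 38 (33.3%, Wilson 95% interval 25.3 to 42.4%) were held by both replicates, against 34.9% of all members.

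Members lay more densely near start sites and near optimal peaks. Coding bases 501 to 1000 bp from the nearest TSS held 48.6 members per 100 kb, those at 2001 to 4000 bp held 34.3 and those beyond 8000 bp held 22.7. Replicate 1's own list fell from 48.2 to 19.0 over the same range, and replicate 3's from 46.7 to 26.6. The median GC content of the coding bases lay between 52.5% and 53.5% in each of these classes. Within 1000 bp of an optimal summit, coding bases held 71.3 members per 100 kb, and beyond 20000 bp they held 25.0. Few members were that near, as 4.44% lay within 1000 bp of an optimal summit and 46.8% lay more than 10000 bp from each. The share of members held by both replicates was 39.2% at 501 to 1000 bp from a TSS and 30.3% beyond 8000 bp. The median signals were 34.6 and 32.0, and the shares were not compared at equal rank.

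**Figure D4:**
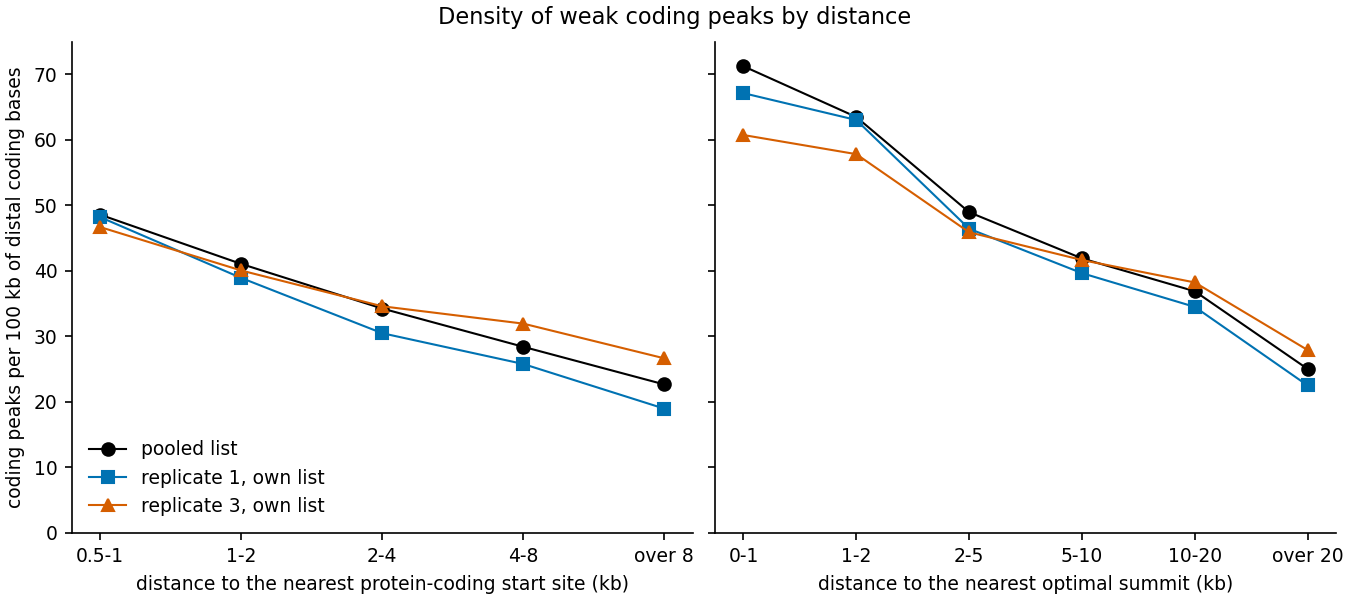
Weak coding peaks per 100 kb of distal coding bases (y axis) by distance in kb to the nearest protein-coding TSS (left) and to the nearest summit of an optimal peak (right), for the pooled list and each replicate's own list. The pooled list falls from 48.6 to 22.7 on the left and from 71.3 to 25.0 on the right, and both replicates' own lists fall in each panel.

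Along the coding sequence, members were densest in the first 20%, which has the fewest distal coding bases and held the fewest members (1103). Of the members, 6877 could be placed on the longest coding transcript of their host. The density was 46.7 per 100 kb in the first 20% of the coding sequence, 33.4 between 40% and 60% and 36.4 in the last 20%, and the first 20% was highest in both replicates' own lists (44.6 in replicate 1 and 45.8 in replicate 3). First coding exons held 48.6 members per 100 kb, last coding exons 43.6, single coding exons 39.4 and internal coding exons 32.3. Members in first coding exons had a median GC content of 59.4%, against 57.4% in internal ones. Densities by position were not compared at equal TSS distance or GC content. Coding exons of 401 to 800 bp held 49.9, those of up to 100 bp held 13.3 and those over 1600 bp held 29.2. Exons of up to 100 bp are shorter than the fragments recovered, and the median GC content at their 42 members was 50.5%. Their density was 22.8 per 100 kb in replicate 1's own list and 13.9 in replicate 3's. Whether exon length or GC content bears on this density was not tested.

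The members fell in 4688 of the 12480 protein-coding genes that have distal coding bases (37.6%). Of these host genes, 3156 held exactly 1 member and 496 held at least 3, and the latter together had 1807 members. Host genes had more coding sequence to offer, a median of 1590 distal coding bases against 726.5 in genes without a member. An optimal summit lay within 500 bp of the TSS of 21.8% of host genes and of 10.2% of the other genes. Among genes with 2165 or more distal coding bases the shares were 25.1% and 13.2%, and among those with 373 to 781 they were 18.4% and 10.6%. Both replicates' own coding peaks shared 2969 host genes, which is 65.7% of the 4517 host genes of replicate 1 and 61.8% of the 4807 of replicate 3.

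The 10 genes with most members were chosen by their count, which depends on coding length. The gene lola, which encodes many isoforms of a BTB zinc-finger transcription factor of axon growth, held 17 members in 14600 distal coding bases. Replicate 1's own list placed 12 coding peaks there and replicate 3's 17, and 8 of the members were held by both. The chromodomain helicase gene kis held 10 (5 in replicate 1's own list, 8 in replicate 3's), and osa, which encodes a subunit of the Brahma remodelling complex, held 9 (7 in each). Tet, the fly homologue of the TET dioxygenases, held 9 (5 and 6), the chromatin gene tou 8 (6 and 7), the corepressor gene spen 8 (7 and 9) and Smr, a nuclear receptor corepressor, 8 (6 and 5). The others were Msp300, a giant nesprin that links nuclei to actin, with 9, btsz, a synaptotagmin-like protein, with 8, and gukh, a synaptic scaffold protein, with 7. Counts in long genes follow length in part: Msp300 held 13.7 members per 100 kb of distal coding bases and lola 116. The highest signal per gene ran from 39.92 in Smr to 62.62 in btsz, where the third quartile over all members was 39.78. Each of these values is the highest of several members.

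Gene lists differed widely in the density of members, and ribosomal protein genes and glycolysis genes stood highest in the pooled list. The lists were written with earlier results of these data known, and the values are descriptions without a test. Beside each density stands the number that the list's own distal coding bases would give at the rate of all such bases of the same GC content and the same distance to a TSS.

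Genes of glycolysis and core energy metabolism held 33 members in 21 of 24 genes, 110 per 100 kb, with a median of 1 member per gene against 0 over all genes. Replicate 1's own list gave 90.2 per 100 kb and replicate 3's 93.6. At the rate for GC content and TSS distance, 18.2 members would fall there, so that the count was 1.81 times that number, and 1.67 and 1.58 times in the replicates' own lists. Both replicates held 17 of the 33 (51.5%, Wilson 95% interval 35.2 to 67.5%), against 34.9% of all members. The share held by both falls with rank, and these 2 shares were not compared at equal rank. The enolase gene Eno held 3 members, all held by both, and each replicate's own list had 3 there. Its strongest member had a signal of 64.85 and rank 4374 in the pooled list, where the median rank of all members was 18274.5. This member had 22.75 (rank 11661) in replicate 1 and 37.85 (rank 3653) in replicate 3. The mitochondrial aconitase gene mAcon1 and the phosphofructokinase gene Pfk held 3 each, and SdhA, a subunit of succinate dehydrogenase, held 2. The sequence at Eno's 3 summits is shown with the same 4 words in capitals; the first 2 of these peaks overlap.
Eno, chr2L:1725349-1725449, minus strand: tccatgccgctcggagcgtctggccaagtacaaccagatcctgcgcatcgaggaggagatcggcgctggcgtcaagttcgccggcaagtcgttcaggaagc
Eno, chr2L:1725556-1725656, minus strand: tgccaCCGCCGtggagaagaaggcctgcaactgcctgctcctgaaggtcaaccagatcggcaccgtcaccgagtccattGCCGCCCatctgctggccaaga
Eno, chr2L:1726119-1726219, minus strand: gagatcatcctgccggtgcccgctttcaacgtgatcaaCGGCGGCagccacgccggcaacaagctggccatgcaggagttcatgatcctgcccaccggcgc
Of the 3 windows, 2 hold at least 1 of the words, and their GC content was 62.4%, 62.4% and 64.4%.

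Cytoplasmic ribosomal protein genes held 31 members in 25 of 56 genes, 141 per 100 kb. The replicates differed here, at 118 per 100 kb in replicate 1's own list and 72.8 in replicate 3's. Against the rate for GC content and TSS distance the count was 2.13 times as high in the pooled list, 1.95 times in replicate 1 and 1.15 times in replicate 3. RpL13 held 3 members in 458 distal coding bases, none of them held by both replicates, and RpS3 and RpL27 held 2 each. These genes are short, and the whole list has 21973 distal coding bases. Translation factors and cytoplasmic chaperones held 24 members in 14 of 22 genes (59.8 per 100 kb, 1.28 times the rate), among them eIF3a with 5, of which 3 were held by both, eEF2 with 3, and the chaperone genes Hsc70-4 and Gp93 with 2 each. Actin, tubulin and histone variant genes held 11 members in 9 of 18 genes (62.0 per 100 kb, 1.03 times the rate), with 2 in His2Av, 2 in Act5C, 1 in Act42A and 1 in alphaTub84B. Some ribosomal, actin and tubulin genes have near copies elsewhere in the genome, and how the authors placed reads among copies is not given in the sources used here.

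Transcription factors of patterning and cell fate held 74 members in 34 of 53 genes (56.2 per 100 kb, 1.18 times the rate), with 4 in pros, 3 in bun and 3 in sbb beside the 17 of lola. Chromatin remodelling, Polycomb and trithorax genes held 68 members in 26 of 34 genes (39.9 per 100 kb, 1.38 times the rate), with 4 in Asx and 4 in Psc after kis and osa. Both lists were above the rate in each replicate's own list as well, by 1.21 and 1.17 times for the first and 1.54 and 1.26 times for the second. These ratios include genes already named for their high counts. At the rate, 63.0 members would fall in the first list, and 17 of its 74 lay in lola alone. In the second list 49.3 would fall, and of its 68 kis held 10 and osa 9. Whether either list stands above the rate without these genes was not tested.

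The lists of mucins, matrix and adhesion proteins, giant muscle proteins, motor heavy chains, and proteins secreted by hemocytes and fat body stood low. Mucin genes held 2 members in 106810 distal coding bases (1.87 per 100 kb, 0.111 times the rate), 1 in Muc11A and 1 in mgl, which encodes an endocytic receptor of the LDL-receptor family and no mucin. The replicates' own lists gave 3.74 and 4.68 per 100 kb, 0.219 and 0.255 times the rate. Extracellular matrix and adhesion genes held 65 members in 30 of 39 genes (19.1 per 100 kb, 0.716 times the rate). The giant apical matrix gene dpy held 6 in 68847 distal coding bases, none of them held by both replicates, while the cadherin gene ft held 7, Ten-m 5 and the laminin gene wb 4. Giant sarcomere and muscle genes held 41 members in 14 of 17 genes (17.3 per 100 kb, 0.826 times the rate), with 6 in the myosin heavy chain gene Mhc, 4 in Zasp52 and 3 in zormin. Dynein, kinesin and myosin heavy chains held 31 in 19 of 25 genes (19.9 per 100 kb, 0.690 times the rate), including Myo10A and Dhc62B with 3 each and Klp10A and Myo95E with 2 each. Lipoproteins and other proteins secreted by hemocytes and fat body held 12 members in 7 of 19 genes (14.3 per 100 kb, 0.618 times the rate), with 3 in Pxn, 3 in Apoltp, 2 in Lsp1beta and 1 in Lsp2.

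The 4 lists not yet named had the following values. Chitin and cuticle genes held 13 members in 7 of 19 genes (31.2 per 100 kb), with 4 in Cda5 and 2 each in Cht7, verm and kkv. Cell cycle and segregation genes held 15 in 13 of 26 (23.2 per 100 kb), with 2 in stg, the Cdc25 phosphatase, 2 in glu, 1 in cnn and 1 in fzy, and both replicates held 1 of the 15. Nuclear pore and lamina genes held 11 in 8 of 15 (21.1 per 100 kb), with 2 each in LamC, Nup358 and Nup98-96 and 1 in Nup154. Yolk, vitelline membrane and chorion genes held 4 in 4 of 13 genes (25.0 per 100 kb), 1 each in psd, Cp36, Yp3 and Cp38, and the list was at 6.24 per 100 kb in replicate 1's own list and 25.0 in replicate 3's. These lists were at 0.940, 0.696, 0.603 and 0.524 times the rate in the order given. Chitin and cuticle genes were above the rate in both replicates' own lists, at 1.13 times in replicate 1 and 1.33 times in replicate 3. The other lists of this paragraph were below it in both.

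**Figure D5:**
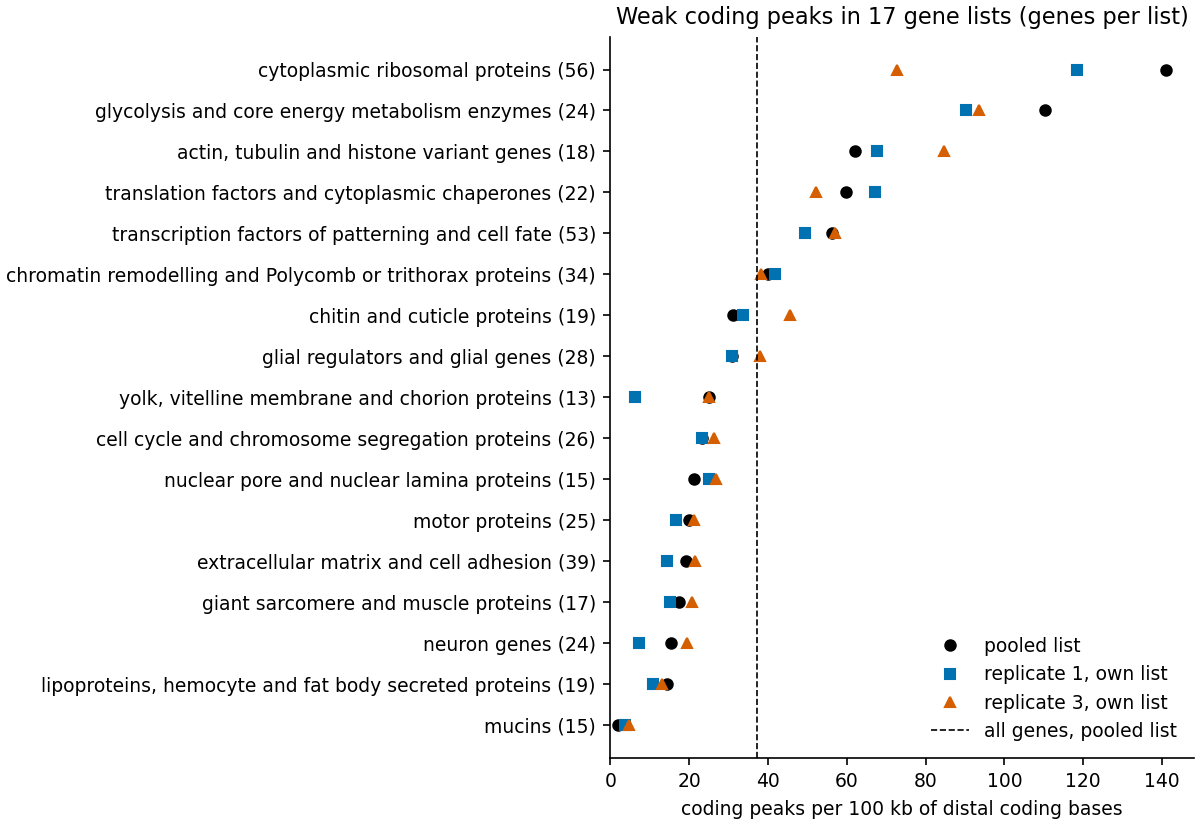
Weak coding peaks per 100 kb of distal coding bases (x axis) in 17 gene lists (y axis, number of genes with distal coding bases in parentheses), for the pooled list and each replicate's own list; the dashed line is the pooled density over all genes, 37.3. Ribosomal protein genes (141) and glycolysis genes (110) lie far to the right in the pooled list, and mucin genes (1.87) at the left edge.

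Glial genes held members at close to the rate of other coding sequence of the same GC content and TSS distance. Glial regulators and glial genes held 22 members in 14 of 28 genes, 30.8 per 100 kb, which was 0.972 times the rate for GC content and TSS distance (1.06 and 1.15 times in the replicates' own lists). Both replicates held 8 of the 22 (36.4%, against 34.9% of all members). Neuron genes held 15 members in 8 of 24 genes (15.4 per 100 kb, 0.568 times the rate), and the replicates' own lists differed, at 7.18 per 100 kb in replicate 1 and 19.5 in replicate 3. The neuronal members lay in brp, an active zone protein (5), dlg1, a synaptic scaffold (3), Nrg, an adhesion protein (2), and Syx1A, a syntaxin (1), among others. Members at glial genes included 3 in loco, a regulator of G-protein signalling, 2 in the transcription factor gene pnt, 2 in pyr, which encodes an FGF, and 2 in gcm, the switch gene that starts glial fate. The 2 members of gcm overlap each other, with signals of 31.57 and 31.01, and the first was held by both replicates. Of the 8 glial markers, repo, gcm, loco and drpr held members and moody, Eaat1, alrm and wrapper held 0. Among the marker genes of other cells, 3 of 5 neuronal markers (elav, brp, futsch), 4 of 4 muscle markers (Mhc, Mef2, sls, up) and 2 of 3 hemocyte markers (Hml, Pxn) held at least 1 member, against 37.6% of all genes with distal coding bases and 65.7% of those with 2165 or more.

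The gene repo itself held 2 members in its 1640 distal coding bases. The stronger, with its summit 1836 bp from the nearest TSS, had a pooled signal of 54.01 (rank 6276), with 27.43 (rank 7693) in replicate 1 and 27.45 (rank 7277) in replicate 3. The other, 979 bp from the TSS, had 42.36 (rank 10557) and was held by replicate 3 alone, with 39.13 (rank 3417). Their windows were 66.3% and 58.4% GC. They are shown in the order of their place in the gene, because repo is the gene of the tagged protein, and how many copies of repo sequence the transgenic line carries is not given in the sources used here.
repo, chr3R:18237121-18237221, plus strand: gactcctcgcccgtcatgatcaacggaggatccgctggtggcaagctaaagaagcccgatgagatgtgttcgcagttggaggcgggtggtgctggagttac
repo, chr3R:18237978-18238078, plus strand: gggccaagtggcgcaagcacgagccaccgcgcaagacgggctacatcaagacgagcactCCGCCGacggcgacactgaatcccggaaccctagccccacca
The window of the stronger member holds 1 of the 4 words and neither window holds CAATTA.

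The X chromosome and the small chromosome 4 held fewer members than the large autosomal arms. The density was 40.4 per 100 kb on 2R and on 3L, 38.1 on 3R, 36.0 on 2L, 32.6 on X and 11.3 on 4. Members on X were richer in G and C (median 59.4%) than those on 2L, 2R, 3L and 3R (57.4% on each). At the rate for GC content 1483 members would fall on X, against 1098 observed (0.740 times), and the replicates' own lists gave 0.741 and 0.726 times. The embryos were of mixed sex, and these numbers do not allow for the copies of X per cell. Whether that bears on the lower count was not tested. Chromosome 4, which is largely heterochromatic, held 29 members (median 47.5% GC), and its replicates differed: replicate 1's own list gave 63 coding peaks there (24.5 per 100 kb) and replicate 3's gave 27 (10.5 per 100 kb). At the rate for GC content these were 1.72 and 0.850 times the number for the chromosome.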

How the data were processed

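The authors deposited peak lists on the dm6 assembly for each replicate, for both pooled and for the optimal set after IDR, per the file lists deposited with the samples. Neither aligner nor peak caller is named, nor is the cut-off of the IDR step (not given in the sources used here), and read depth is unknown. The lists hold, per peak, the authors' signal, the −log10 of a q-value and the offset of the summit from the peak start. The deposited lists on dm3 were not used here, and 0 columns belonged to no sample. Summits were classed with Ensembl release 115 of BDGP6, the Ensembl name of dm6, in the order promoter, coding, other exonic, intron and intergenic. Sequences were read from that assembly.

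Shares were compared with Fisher's exact test, two-sided, and with Mantel-Haenszel odds ratios and the Cochran-Mantel-Haenszel test over rank bands, each with Benjamini-Hochberg adjustment. Wilson 95% intervals cover counting error only. Numbers at the rate for GC content came from the density of members in 8 GC classes, alone or within classes of TSS distance. The tools were numpy 2.4.6, pandas 2.3.3, scipy 1.17.1, statsmodels 0.14.6, Biopython 1.88 and matplotlib 3.10.9. The word comparison was tested on simulated counts. Word counting and the coding lookup were checked on some of the real windows and members. The genes named are the hosts of the 10 members of highest signal, those of the 10 members ranked best by their lower replicate rank, the 10 genes with most members, up to 4 genes per list, repo and the marker genes. The members, gene lists, motifs and tests were chosen with earlier results of these data known. Alternatives were other TSS distances, stricter coding and matching rules, rank bands, the stronger 50% of the lists, other windows and shifts, and each replicate's own list in place of the pooled list.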

Additional observations from a re-analysis of the deposited data

How the results depend on the processing

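Of the 63 alternative values for shares held by the replicates, 50 kept their direction and their side of the threshold. Within bands of 5000 ranks, the odds ratios moved to 0.931, 1.12, 1.17, 1.31 and 0.947 (replicate 1 against intron and intergenic, replicate 3 against intron, promoter and intergenic peaks) and to 1.1, 1.05 and 1.02 for both replicates against intron, promoter and intergenic peaks. Elsewhere, replicate 1 against intergenic peaks gave 1.02 with summits coding in every transcript. Replicate 3 against promoter peaks gave 0.927 (adjusted p = 0.224 by Fisher's exact test) in the stronger 50% of weak peaks. Replicate 3 against intron peaks gave 0.933 with replicate summits within 100 bp. With the stronger 50% of each replicate's list, replicate 1 against intergenic gave 0.894 and replicate 3 against intron 0.826. The share of own coding peaks found in the other replicate fell to 25.8% and 24.1% with summits within 100 bp, and to 26.9% and 23.0% with the stronger 50% of each list. The stronger 50% of weak peaks left 2964 members, with a mean GC content of 58.3%, a difference from shifted windows of 4.40 points, and 172 words higher and 271 lower. Windows reaching 100 bp either side had a mean of 56.6% GC, and windows of 55 to 60% GC gave 0 words higher and 0 lower by Fisher's exact test. With each replicate's own list in place of the pooled list, the number of members ran from 6584 to 7094, mean GC content from 56.5 to 57.3%, the GC difference from 3.11 to 3.64 points, the words higher from 215 to 288 and lower from 316 to 455, and the median relative position from 0.538 to 0.541. The count of 316 lower words came without replicate 3. Of 87 motif values, 12 changed direction: TATCGATA to 0.456 without replicate 3 (1.89 without replicate 1) and 0.913 with a shift of 1000 bp; GGTCACAC to 1.02 in the stronger 50% and 1.12 with that shift; GAGAGAG to 1.21 without replicate 1 (0.608 without replicate 3), 1.35 beyond 1000 bp from a TSS, 1.07 with the shift and 2.73 at 55 to 60% GC; CAGGTA to 1.02 in wider windows and 1.28 at 55 to 60% GC; CAGCTG to 0.981 at 55 to 60% GC; and CACGTG to 0.995 without replicate 1 (1.18 without replicate 3). Of the other motif values, 5 passed the test where the main value did not, 4 of CAATTA (0.607 to 0.701) and 1 of CAGGTA (0.766 with the shift). Another 10 no longer passed, by Fisher's exact test: TAATTA beyond 1000 bp from a TSS (adjusted p = 0.0655), in the stronger 50% (0.127) and at 55 to 60% GC content; TAATGA in windows of 55 to 60% GC content; CACCTG in the stronger 50% (0.0949) and at 55 to 60% GC content; CAGCTG with the shift (1.11, adjusted p = 0.203); and CAGCAGCAG without replicate 3 (adjusted p = 0.0879), in the stronger 50% (1.05) and at 55 to 60% GC. The cause of these moves was not tested.

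No paired analysis was possible because the series has 1 group. The lists hold no reads, so the depth of the replicates is unknown and no peak can be weighed by its count. The labels give 1 group with no untagged control, so no value has a background measured the same way. The pooled list was made from both replicates, and overlapping members share sequence.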
